A study of Homo sapiens with 2 samples.

Results

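Genes that mark epithelial or mesenchymal identity were examined in HCT116 cells with and without DAC. The 10 genes were taken by name from the 33538 genes of both count tables, where each was found once, and the names were chosen with earlier results of these data known. The epithelial genes were *CDH1*, *EPCAM*, *CLDN3*, *CLDN4*, *CLDN7*, and *ESRP1*, and the mesenchymal genes were *CDH2*, *ZEB1*, *SNAI2*, and *FN1*. HCT116 is an established human colon cancer cell line. DAC (decitabine), an analog of deoxycytidine, enters DNA in dividing cells and traps DNA methyltransferases there. DAC was given at 0.5 μM, on day 1 and again on day 3 after seeding, the medium was changed on day 5 to end the exposure, and the cells were analyzed on day 7. The mock-treated cells were the same line without DAC. From each condition, 1 single-cell RNA library was made, so that an effect of DAC cannot be told apart from other differences between both cultures or their library preparation.

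Epithelial cells adhere to their neighbors through adherens junctions, built on E-cadherin (*CDH1*), and seal the space between them with tight junctions, built on claudins. In the epithelial-mesenchymal transition, transcription factors of the ZEB and SNAIL families repress such genes, and N-cadherin (*CDH2*), vimentin (*VIM*), and fibronectin (*FN1*) are typically gained. The microRNAs of the miR-200 family bind the *ZEB1* transcript and lower its level, and ZEB1 in turn represses the genes of these microRNAs. ESRP1, an RNA-binding protein of epithelial cells, directs the splicing of many transcripts toward epithelial forms. The libraries counted the 3′ ends of transcripts, so that splice forms and mature microRNAs were not measured.

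The measured quantity was the unique molecular identifier (UMI) count, in which PCR copies of a molecule are counted once. The mock-treated library had 1783 cells with a median of 27899 UMIs, and the DAC-treated library had 1751 cells with a median of 35340 UMIs. Levels are UMIs per 1000000 UMIs of the library (CPM). Since depth differed, 10000 UMIs were also drawn at random from each cell, which kept 1388 mock-treated and 1293 DAC-treated cells and left out 395 and 458 shallower cells. Both libraries shared 12 cell barcodes. The identity of the cells was checked on markers. The keratins *KRT8*, *KRT18*, and *KRT19* had 54580, 101301, and 71817 UMIs in the mock-treated library, and 111870, 252746, and 90571 UMIs in the DAC-treated library. In CPM these were 1094, 2030, and 1439 without DAC and 1895, 4280, and 1534 with DAC. These epithelial markers were thus not lower after DAC. The intestinal differentiation markers *VIL1*, *CDH17*, and *LGALS4* were low, at 37, 1, and 7 UMIs in the mock-treated library, and 62, 9, and 103 UMIs in the DAC-treated library. Intervals given below are 95% intervals and cover counting error only, and no test between conditions was possible with 1 library each.

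Sequences relevant to these genes were taken from RefSeq. The mature microRNAs of the miR-200 family are shown because they are known to target *ZEB1*. Their seeds (bases 2 to 8, in capitals) form 2 groups that differ at 1 base, AAUACUG in the first 3 and AACACUG in the last 2.
hsa-miR-200b-3p: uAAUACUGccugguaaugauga
hsa-miR-200c-3p: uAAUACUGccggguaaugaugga
hsa-miR-429: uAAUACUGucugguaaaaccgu
hsa-miR-200a-3p: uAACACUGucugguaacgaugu
hsa-miR-141-3p: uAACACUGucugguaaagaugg

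The bases that pair with the seeds, CAGTATT and CAGTGTT, were searched on the sense strand of the 3′ UTR of the canonical transcript of each gene (GENCODE release 44). The 3′ UTR of *ZEB1*, of 2543 bases, held 6 matches of CAGTATT and 3 of CAGTGTT. There were 2 matches each in *ESRP1* and *FN1*, 1 in *SNAI2*, and none in the other 6 genes. Of the 19959 canonical 3′ UTRs, 27.6% held at least 1 match and 8 held 9 or more. A match describes the letters of the transcript and does not show binding.

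The promoters of *CLDN3* and *CDH2* are shown because these genes differed in opposite directions and DAC acts on DNA methylation, which occurs at CpG sites. For each gene, the 250 bases before the transcription start are given from 5′ to 3′ on the minus strand of hg38, with CpG sites in capitals. The *CLDN3* stretch is chr7:73770271-73770520 and the *CDH2* stretch is chr18:28177131-28177380.
CLDN3: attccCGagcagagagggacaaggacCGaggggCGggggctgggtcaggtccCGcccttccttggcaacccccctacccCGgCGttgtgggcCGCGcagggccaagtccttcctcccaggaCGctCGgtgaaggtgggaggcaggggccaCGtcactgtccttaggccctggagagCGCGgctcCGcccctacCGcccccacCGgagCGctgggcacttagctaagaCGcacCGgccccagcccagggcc
CDH2: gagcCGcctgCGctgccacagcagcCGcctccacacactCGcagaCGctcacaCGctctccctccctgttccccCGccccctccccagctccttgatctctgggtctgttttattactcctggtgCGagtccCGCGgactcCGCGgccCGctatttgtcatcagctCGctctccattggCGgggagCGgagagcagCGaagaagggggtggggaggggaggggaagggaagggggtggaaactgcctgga

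With the 50 bases after the start, the window held 24 CpG sites in *CLDN3*, 5 in *CLDN4*, 30 in *CLDN7*, 23 in *CDH2*, 17 in *ZEB1*, and 38 in *FN1*. Over all 35116 promoters of this length in the table, the median was 14. Promoters of 6 of the 10 genes were matched, 3 epithelial and 3 mesenchymal, and the window is that of 1 start for each gene. The table holds 2 starts for *CLDN7* and *CDH2* and 7 for *ZEB1*. All 250 bases before the start used for *CLDN4* and *CLDN7* lie in annotated UTR. In these 6 windows, the CpG counts of the claudins, 5 to 30, overlapped those of the mesenchymal genes, 17 to 38. The E-box bound by ZEB and SNAIL factors, CACCTG on either strand (CAGGTG when read on the other), occurred 5 times in the window of *CLDN7*, 3 times in that of *ZEB1*, once in that of *CLDN3*, and not in those of *CLDN4*, *CDH2*, and *FN1*. At least 1 was present in 20.6% of all promoters, and 4 or more in 0.168%. Methylation and binding at these sites were not analysed here.

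After DAC, *EPCAM*, the 3 claudins, and *ESRP1* were lower and *ZEB1* was higher by 1.5-fold or more. *CDH1* and *FN1* were inside 1.5-fold, and *CDH2* and *SNAI2* had few UMIs, most of them in DAC-treated cells. Together, the 6 epithelial genes had 45107 UMIs in the mock-treated library (904 CPM) and 27431 UMIs in the DAC-treated library (465 CPM). The level in DAC-treated cells was 1.95-fold lower (1.92 to 1.97). The 4 mesenchymal genes had 319 UMIs in the mock-treated library (6.39 CPM) and 755 UMIs in DAC-treated cells (12.8 CPM). The level was higher in DAC-treated cells by a ratio of 2.001 (1.75 to 2.29).

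Among all genes, 13547 had 100 UMIs or more over both libraries, and 31.0% of them were at least 1.5-fold higher and 14.2% at least 1.5-fold lower in DAC-treated cells. Of the 10 identity genes, 8 had 100 UMIs or more. All 6 epithelial genes were among them, and 5 were at least 1.5-fold lower and none was higher. Without cells over 20% mitochondrial UMIs, or with CPM averaged over cells, *EPCAM* was inside 1.5-fold (log2 ratios of -0.58 and -0.56) and 4 remained. Of the mesenchymal genes, *ZEB1* and *FN1* were among them, and *ZEB1* was at least 1.5-fold higher. *CDH2* and *SNAI2* were below 100 UMIs. The median log2 ratio of DAC-treated to mock-treated cells over all 13547 genes was 0.24. When the libraries were scaled by the median of ratios, the shares over all genes became 21.2% higher and 21.7% lower, and the same numbers of identity genes, 5 lower and 1 higher, passed. A share of 5 of 6 lower genes stood beside 14.2% or 21.7% of all genes.

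**Figure D1:**
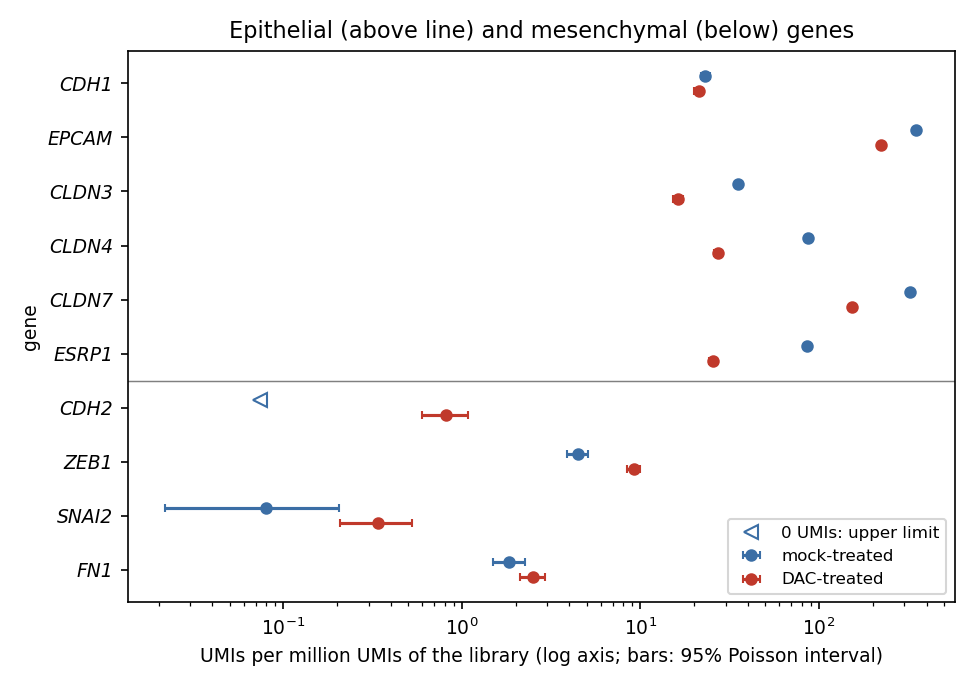
Level of each gene in mock-treated (blue) and DAC-treated (red) cells, in CPM on a log axis, with 95% Poisson intervals; an open triangle marks the upper limit for 0 UMIs. The points of *CLDN4* and *ESRP1* are separated most among the epithelial genes, those of *CDH1* nearly coincide, and *CDH2* has no UMI in mock-treated cells.

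*CDH1* encodes E-cadherin, the calcium-dependent adhesion molecule of adherens junctions (chromosome 16 of hg38, from 68737292 to 68835537). It had 1152 UMIs (23.1 CPM) in the mock-treated library and 1248 UMIs (21.1 CPM) in the DAC-treated library. The ratio was 0.916 (0.845 to 0.993). This was the smallest difference of the 10 genes, and its direction depended on the cells used. Among the cells with more than 50% mitochondrial UMIs, 311 mock-treated and 319 DAC-treated cells, *CDH1* was 1.56-fold higher in DAC-treated cells (1.14 to 2.16). Among cells with 10000 UMIs or more and 50% mitochondrial UMIs or less, the ratio was 0.876 (0.805 to 0.954). At least 1 UMI was present in 38.0% of mock-treated cells (35.8 to 40.3%) and 31.8% of DAC-treated cells (29.6 to 34.0%). At equal depth these shares were 19.5% and 17.9%, with intervals that overlapped.

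*EPCAM* encodes a homophilic adhesion molecule of the epithelial surface (chromosome 2, from 47345158 to 47387601). Its UMIs were 17419 in the mock-treated library (349 CPM) and 13099 in DAC-treated cells (222 CPM). The level in DAC-treated cells was 1.57-fold lower (1.54 to 1.61), near the limit of 1.5-fold. *EPCAM* and *CLDN7* made up most of the epithelial UMIs, at 38.6% and 35.8% of the sum in mock-treated cells and 47.8% and 32.9% in DAC-treated cells. At equal depth, 92.4% of mock-treated cells (90.9 to 93.8%) and 76.2% of DAC-treated cells (73.8 to 78.5%) had a UMI of *EPCAM*.

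The claudins are membrane proteins that form the strands of tight junctions and set their permeability. *CLDN3* (chromosome 7, from 73768997 to 73770270) had 1762 UMIs (35.3 CPM) in the mock-treated library and 955 UMIs (16.2 CPM) in the DAC-treated library, 2.18-fold lower (2.02 to 2.36). *CLDN4* (chromosome 7, from 73799542 to 73832690) had 4337 UMIs (86.9 CPM) and 1610 UMIs (27.3 CPM), 3.19-fold lower (3.01 to 3.38). *CLDN7* (chromosome 17, from 7259903 to 7263983) had 16141 UMIs (323 CPM) and 9019 UMIs (153 CPM), 2.12-fold lower (2.06 to 2.17). All 3 claudins were lower by more than *EPCAM*, and the interval of *CLDN4* lay apart from those of *CLDN3* and *CLDN7*. The annotated region of *CLDN7* overlaps *ELP5* on the opposite strand, and whether counting used the strand is not given in the sources used here. At equal depth, a UMI was present in 28.2% of mock-treated and 12.5% of DAC-treated cells for *CLDN3*, in 51.9% and 20.5% for *CLDN4*, and in 90.0% and 59.4% for *CLDN7*. The largest number of UMIs of *CLDN4* in a single cell at equal depth was 7 in both libraries.

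*ESRP1*, the splicing regulator (chromosome 8, from 94641074 to 94707466), showed the largest difference of the epithelial genes. It had 4296 UMIs (86.1 CPM) in the mock-treated library and 1500 UMIs (25.4 CPM) in the DAC-treated library. The level in DAC-treated cells was 3.39-fold lower (3.19 to 3.60), an interval that overlapped that of *CLDN4*. At equal depth, 50.4% of mock-treated cells (47.7 to 53.0%) and 21.8% of DAC-treated cells (19.6 to 24.2%) had a UMI. Its paralog *ESRP2*, named after its values were seen, had 249 and 437 UMIs, a log2 ratio of 0.57, and was thus not lower in DAC-treated cells.

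*ZEB1*, a zinc-finger repressor of epithelial genes (chromosome 10, from 31318495 to 31529814), contributed most of the mesenchymal UMIs, 69.9% in mock-treated and 71.5% in DAC-treated cells. It had 223 UMIs (4.47 CPM) in the mock-treated library and 540 UMIs (9.15 CPM) in the DAC-treated library, a ratio of 2.05 (1.75 to 2.40). The share of cells with a UMI was 9.93% (8.58 to 11.4%) in mock-treated cells and 20.8% (18.9 to 22.8%) in DAC-treated cells. At equal depth it was 4.25% (3.25 to 5.45%) and 7.66% (6.27 to 9.24%). *ZEB1* was thus already present without DAC. At equal depth, a single cell had up to 2 UMIs in the mock-treated and up to 3 in the DAC-treated library. Its region overlaps *ZEB1-AS1* on the opposite strand.

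*SNAI2* encodes the SNAIL-family repressor SLUG (chromosome 8, from 48917598 to 48921740). Its UMIs were 4, in 4 cells, without DAC and 20, in 13 cells, with DAC, a ratio of 4.23 with a wide interval (1.42 to 17.0). At equal depth, a UMI of *SNAI2* was present in 2 cells of each library, so that the difference was not detectable in shares of cells at this depth.

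*CDH2* encodes N-cadherin, the adhesion molecule of neural and mesenchymal cells (chromosome 18, from 27932879 to 28177946). None of the 1783 mock-treated cells had a UMI, which allows a share of cells with a UMI of up to 0.207% (upper limit of the exact interval). This limits the cells with a UMI and not the cells expressing the gene, which can lack one. In DAC-treated cells, 48 UMIs were present in 44 cells (2.51%, 1.83 to 3.36%), with at most 2 UMIs in a cell. Set against 3 counts over the mock-treated library, about the most that a count of 0 allows, the 48 UMIs after DAC gave a level 13.5-fold higher. The exact 95% lower limit of the ratio, which also takes in the counting error of the DAC-treated library, was 10.6. As a log2 ratio, the value against 3 counts was 3.76. It was 2.89 without cells over 20% mitochondrial UMIs and 0.52 at 10000 UMIs per cell. No cell had more than a trace. With so few UMIs, how evenly the gene was spread over cells could not be seen. The libraries hold no cell type that lacks the gene, so a share of cells with a UMI from free RNA alone could not be set beside this one.

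*FN1* encodes fibronectin, a glycoprotein of the extracellular matrix (chromosome 2, from 215360440 to 215436073). It had 92 UMIs (1.84 CPM) in the mock-treated library and 147 UMIs (2.49 CPM) in the DAC-treated library. The ratio was 1.35 (1.03 to 1.77), a log2 ratio of 0.43 and below 1.5-fold. It passed 1.5-fold with cells thinned to 10000 UMIs (0.73) or 2000 UMIs (1.25) and without cells over 20% mitochondrial UMIs (0.72). At equal depth, 1.59% of mock-treated cells (0.996 to 2.39%) and 2.47% of DAC-treated cells (1.70 to 3.48%) had a UMI, so that the shares could not be separated at this depth.

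**Figure D2:**
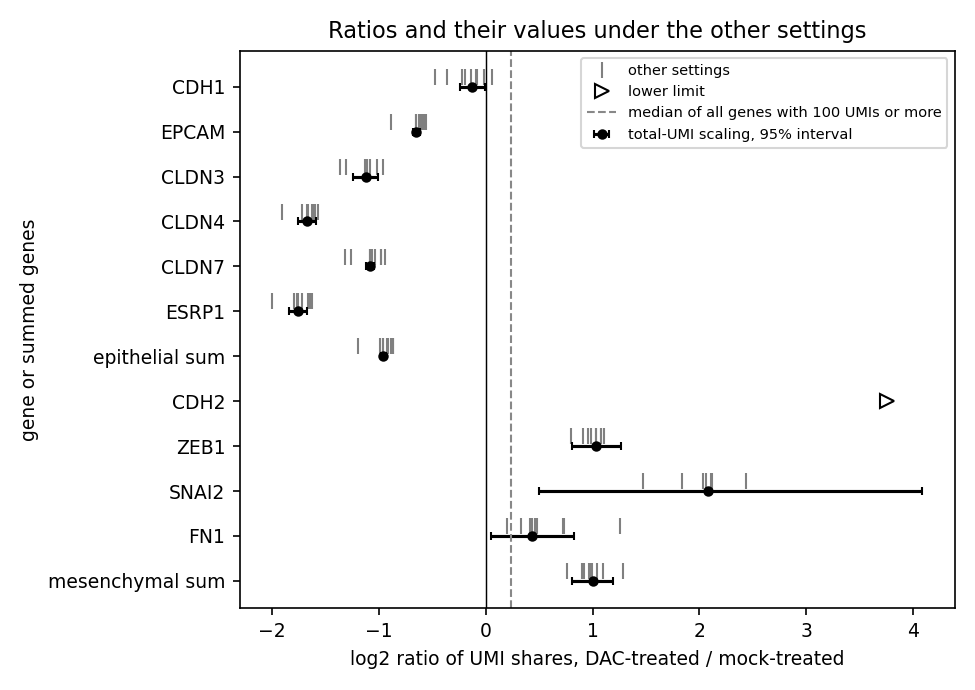
Log2 ratio of the share of UMIs in DAC-treated to that in mock-treated cells for each gene and both sums (black, with 95% intervals), with grey ticks for the other settings of cells, depth, and scaling; the ticks of *CDH2*, whose value is a lower limit, are not drawn. *EPCAM*, the claudins, and *ESRP1* stay below 0 and *ZEB1* stays above the median of all genes (0.24, dashed) at every tick, while those of *CDH1* lie on both sides of 0.

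The mitochondrial share of UMIs, a sign of RNA quality, had medians of 17.9% in mock-treated and 18.3% in DAC-treated cells. More DAC-treated cells had a high share, with 775 of 1751 against 607 of 1783 mock-treated cells over 20%. Of the cells used at equal depth, 173 of 1293 DAC-treated and 90 of 1388 mock-treated cells were over 50%. Among cells with more than 50% mitochondrial UMIs, the epithelial sum was 561 CPM in mock-treated and 349 CPM in DAC-treated cells, a ratio of 0.621 (0.576 to 0.670). Among cells with 10000 UMIs or more and 50% mitochondrial UMIs or less, it was 921 and 474 CPM, a ratio of 0.514 (0.506 to 0.522). The lower epithelial level was therefore present in both kinds of cells. The ratio of the mesenchymal sum was 2.61 (1.37 to 5.38) in the former and 1.97 (1.72 to 2.26) in the latter cells.

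Individual cells were then compared at equal depth. In mock-treated cells, the 6 epithelial genes together had a median of 8 UMIs per cell, with quartiles of 6 and 12. In DAC-treated cells, the median was 4, with quartiles of 2 and 7, and 78.5% of the cells were below the median of the mock-treated cells. Cells with fewer than 2 epithelial UMIs were 30 of the mock-treated cells (2.16%, 1.46 to 3.07%) and 291 of the DAC-treated cells (22.5%, 20.3 to 24.9%). Without any epithelial UMI were 7 of the mock-treated cells (0.504%) and 135 of the DAC-treated cells (10.4%). The lower level of these 6 genes was thus seen both as a shift of the bulk of the cells and as a larger group of cells with few or no UMIs of them. It did not extend to the keratins. *KRT18* had a mean of 19.8 UMIs per cell in mock-treated and 40.2 in DAC-treated cells, and *KRT19* 14.3 and 14.9. A median of 3 of the 6 genes was detected in a mock-treated cell and of 2 in a DAC-treated cell. All 6 were detected in 23 mock-treated and 5 DAC-treated cells.

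**Figure D3:**
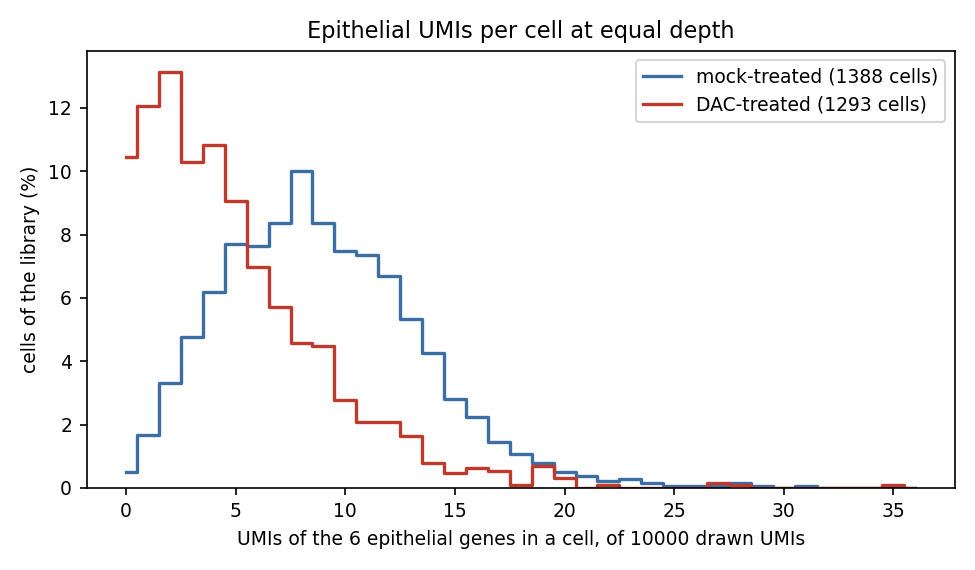
Percentage of cells (y axis) by the number of UMIs of the 6 epithelial genes among 10000 UMIs drawn from each cell (x axis), for 1388 mock-treated (blue) and 1293 DAC-treated (red) cells. The mock-treated cells center at 8 UMIs, whereas the DAC-treated cells are shifted to the left, with 10.4% at 0 and a tail that reaches the range of the mock-treated cells.

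Variation between cells was measured at equal depth as the squared coefficient of variation (CV) in excess of Poisson sampling. For the epithelial sum it was 0.144 in mock-treated and 0.570 in DAC-treated cells. For each of the 6 genes it was higher after DAC, from 0.161 to 0.522 for *EPCAM*, 0.320 to 1.19 for *CLDN7*, 0.473 to 2.62 for *CLDN4*, 0.539 to 1.39 for *CLDN3*, 0.355 to 1.77 for *CDH1*, and 0.479 to 0.659 for *ESRP1*. At 2000 UMIs per cell, it was lower after DAC for *CLDN3*, from 2.53 to 0.191, and for *ESRP1*, from 0.435 to 0.175, so that the direction for these genes depended on depth. For the epithelial sum it was 0.190 in mock-treated and 0.733 in DAC-treated cells at 2000 UMIs. *CDH1*, with nearly equal mean levels, had the higher value in DAC-treated cells at both depths. This variation was not computed over all genes, so whether a higher value after DAC is particular to the epithelial genes was not tested. Of the cells at 10000 UMIs, 173 of 1293 DAC-treated and 90 of 1388 mock-treated cells had over 50% mitochondrial UMIs. Their part in the variation was not tested.

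The epithelial genes were compared pairwise by Spearman correlations over the cells at equal depth. All 15 pairs of epithelial genes were positive in DAC-treated cells (median 0.103), and 9 of 15 were positive in mock-treated cells (median 0.0686). The highest was that of *EPCAM* and *CLDN7*, 0.401 in DAC-treated and 0.242 in mock-treated cells. The other values were weak, up to 0.218 for *CLDN7* and *ESRP1* in mock-treated cells, and the part of sparse counts in this was not tested. Pairs of other genes were not compared, so no relation is read from these values or from the numbers of positive pairs.

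The relation between epithelial and mesenchymal genes was examined in the same cells. Over all cells, 255 of the mock-treated cells (14.3%, 12.7 to 16.0%) and 480 of the DAC-treated cells (27.4%, 25.3 to 29.6%) had at least 1 mesenchymal UMI. At equal depth, 83 mock-treated cells (5.98%) and 130 DAC-treated cells (10.1%) had one. Of these cells, 2 of the 83 and 17 of the 130 had no epithelial UMI, beside 0.504% of all mock-treated and 10.4% of all DAC-treated cells. The Spearman correlation of both sums was weak, -0.110 over 1388 mock-treated cells and -0.088 over 1293 DAC-treated cells, and at 2000 UMIs per cell it was -0.0031 and 0.0053. With CPM per cell in place of drawn UMIs, it was -0.149 and -0.234.

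The cells of each library were divided into 3 equal groups by their epithelial UMIs, with cells of the same count at a border falling on either side. The share of cells with a UMI of *ZEB1* was 6.70%, 4.32%, and 1.73% in the mock-treated cells with the lowest, middle, and highest epithelial counts. In DAC-treated cells it was 9.98%, 8.35%, and 4.64%. The intervals of the lowest groups, 4.59 to 9.37% and 7.31 to 13.2%, did not overlap those of the highest groups, 0.750 to 3.38% and 2.86 to 7.08%. In both libraries, *ZEB1* was thus found more often in the cells with the fewest epithelial UMIs, and the pattern was present without DAC. *EPCAM* and *CLDN7* made up most of these UMIs. In mock-treated and DAC-treated cells, the Spearman correlation of *ZEB1* was -0.103 and -0.067 with *EPCAM*, and -0.086 and -0.078 with *CLDN7*. It was -0.051 and -0.048 with *CLDN4*, and -0.041 and -0.042 with *ESRP1*. With *CLDN3* it was 0.017 and -0.013, and with *CDH1* -0.0075 and -0.038. *VIM*, an intermediate filament protein of mesenchymal cells, had a UMI in 69.8%, 59.2%, and 47.8% of the DAC-treated groups, in the same order, and in 8.64%, 6.05%, and 3.90% of the mock-treated groups. Among DAC-treated cells, *FN1*, *TAGLN*, and *SPARC*, the last 2 chosen after their values were seen, did not fall from group to group in this way. *FN1* had a UMI in 2.55%, 2.55%, and 2.32% of the DAC-treated groups and in 1.73%, 1.94%, and 1.08% of the mock-treated groups. For *TAGLN*, a gene of the actin cytoskeleton, the shares with DAC were 14.6%, 17.9%, and 15.5%, and without DAC 1.94%, 2.38%, and 3.25%. For *SPARC* they were 32.0%, 34.1%, and 29.5% with DAC and 1.08%, 0.864%, and 0.649% without. *CDH2* and *SNAI2* had a UMI in 4 cells or fewer of a library at this depth. From the lowest to the highest group, the median mitochondrial share was 18.7%, 17.5%, and 16.2% in mock-treated cells and 19.9%, 19.1%, and 18.6% in DAC-treated cells, and its part in these shares was not tested. Over cells, the Spearman correlation of the mitochondrial share with the epithelial sum was -0.269 in mock-treated and -0.061 in DAC-treated cells.

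**Figure D4:**
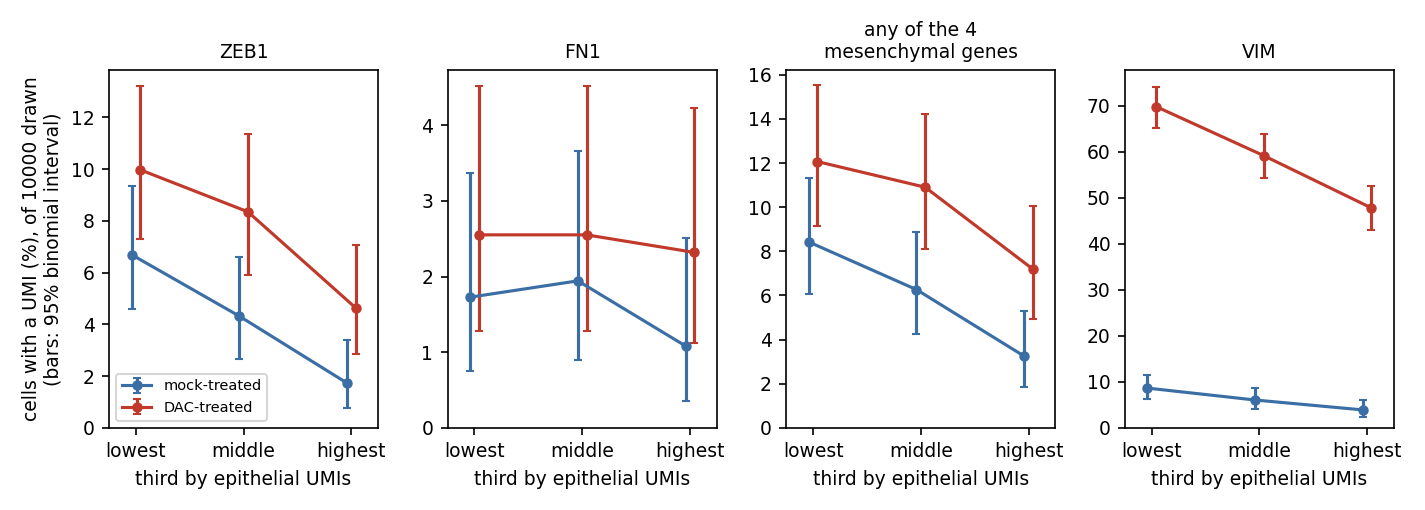
Percentage of cells with a UMI of *ZEB1*, of *FN1*, of any of the 4 mesenchymal genes (mostly *ZEB1*), and of *VIM* at equal depth (y axes, each with its own scale) in the 3 groups of cells by epithelial UMIs, with 95% binomial intervals, in mock-treated (blue) and DAC-treated (red) cells. The shares of *ZEB1* descend from 9.98% to 4.64% in DAC-treated and from 6.70% to 1.73% in mock-treated cells, whereas those of *FN1* stay near 2.55% in DAC-treated cells, with overlapping intervals.

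The genes whose UMIs per cell were most like the epithelial sum were searched by the Pearson correlation of log2(UMI + 1) at equal depth, leaving out genes with a mean under 0.2 UMI per cell. Over 1293 DAC-treated cells they were *SPINT2* (0.379), *RAB25* (0.310), *MAL2* (0.287), *S100A14* (0.268), and *KRT19* (0.264). Over 1388 mock-treated cells they were *S100A14* (0.369), *HSPA5* (0.330), *AREG* (0.304), *FTH1* (0.296), and *DDIT4* (0.279). Only *S100A14* was among the 5 in both libraries. For the mesenchymal sum, the highest correlations were weak, up to 0.129 in mock-treated cells (*IFI6*, *ISG20*, *GATAD2B*, *BDNF*, and *IKBIP*) and up to 0.115 in DAC-treated cells (*LIN28B*, *NUFIP2*, *NORAD*, *UBL4A*, and *SMAD4*).

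Other genes of the same structures and pathways were examined in 9 lists, each by the genes with 100 UMIs or more. The counts are read beside the shares of all genes, 31.0% higher and 14.2% lower, or 21.2% and 21.7% with median-of-ratios scaling. The limit of 100 UMIs is on both libraries together, for the lists as for all genes. A gene with few UMIs in 1 library can thus pass through the other. Among the genes named below, *NECTIN4*, *CLDN6*, *OVOL2*, *SMAD7*, and *SPARC* passed through their counts after DAC. Of 9 adherens junction genes, 3 were at least 1.5-fold higher and none lower in DAC-treated cells, with a median log2 ratio of 0.45, and with median-of-ratios scaling 1 was higher. The highest was *NECTIN4*, a nectin of cell-cell contacts (36 and 516 UMIs, log2 ratio 3.60), and the lowest was *CTNNA1*, which links cadherins to actin (6706 and 6519 UMIs, -0.28). Of 13 tight junction genes, 1 was higher and 1 lower (2 with median-of-ratios scaling), with a median of 0.10. The higher gene was a claudin of embryonic epithelia, *CLDN6*, with 10 UMIs in mock-treated and 1460 UMIs in DAC-treated cells (6.95). The lower gene was the scaffold gene *TJP3*, with 1034 and 198 UMIs (-2.63).

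Of 7 desmosome genes, none was higher and 3 were lower (4 with median-of-ratios scaling), with a median of -0.49, from *PPL*, the plaque protein periplakin (1650 and 980 UMIs, -0.99), to *DSP*, desmoplakin (6555 and 11543 UMIs, 0.57). Among 8 genes of the epithelial surface and of trafficking, 2 were higher (1 with median-of-ratios scaling) and 2 lower, with a median of -0.090. They ranged from *PRSS8*, a membrane-anchored protease (690 and 341 UMIs, -1.26), to *MUC1*, a mucin of the apical membrane (70 and 194 UMIs, 1.23).

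Of 11 regulators of epithelial genes, 2 were higher and 4 lower (5 with median-of-ratios scaling), with a median of 0.37. The largest differences were those of *EHF*, an ETS factor of epithelial cells (1354 and 374 UMIs, -2.10), and *OVOL2*, a zinc-finger repressor of *ZEB1* (18 and 180 UMIs, 3.08). The other higher gene, named like the next ones after its values were seen, was *HNF4A*, a nuclear receptor of intestinal and liver epithelium (56 and 190 UMIs, 1.52). The other lower genes were *ELF3*, another epithelial ETS factor (3072 and 1051 UMIs, -1.79), *GRHL2*, an activator of epithelial junction genes (165 and 77 UMIs, -1.34), and *MIR200CHG*, the host transcript of miR-200c and miR-141 (140 and 94 UMIs, -0.82). The level of a host transcript is not that of its mature microRNAs.

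Of 9 other transcription factors of the transition, 3 had 100 UMIs or more and all 3 passed 1.5-fold toward higher levels after DAC, with a median of 1.41. These were *TWIST1* (158 and 535 UMIs, 1.52), *KLF8* (26 and 82 UMIs, 1.41), and *SNAI1* (260 and 528 UMIs, 0.78). With median-of-ratios scaling, 2 of the 3 passed. *KLF8*, with 26 UMIs without DAC, met the limit of 100 UMIs through its count after DAC, and the median is its value. Of 10 genes of mesenchymal adhesion and the cytoskeleton, 4 were higher and 2 lower, with a median of 0.27, and with median-of-ratios scaling 3 were higher and 3 lower. They ranged from *CD44*, a hyaluronan receptor (11552 and 6126 UMIs, -1.16), to *VIM* (371 and 28589 UMIs, 6.03). The ratio of *VIM* was thus far above those of *ZEB1* and *FN1*.

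Of 9 genes of the mesenchymal matrix and its proteases, 6 were higher (5 with median-of-ratios scaling) and none lower, with a median of 0.88. They ranged from the collagen gene *COL6A2* (2552 and 2915 UMIs, -0.051) to *SPARC*, a collagen-binding matrix protein (47 and 4859 UMIs, 6.45). Of 10 genes of the TGF-beta pathway, a known inducer of the transition, 4 were higher and none lower, with a median of 0.39, from the receptor *TGFBR2* (1129 and 922 UMIs, -0.53) to the inhibitor *SMAD7* (33 and 324 UMIs, 3.05). With median-of-ratios scaling, 3 were higher and 1 lower. All of these medians stand beside the median of 0.24 over all genes. Log2 ratios lay above and below 0 in each list except that of the other transcription factors. In the matrix list, the only gene below 0 was *COL6A2*, with an interval on both sides of 0 (-0.13 to 0.027). Scaled to total UMIs, no gene of the adherens junction, transcription factor, matrix, and TGF-beta lists was at least 1.5-fold lower. None of the desmosome list was higher by this limit, and the other lists had genes past it in both directions.

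**Figure D5:**
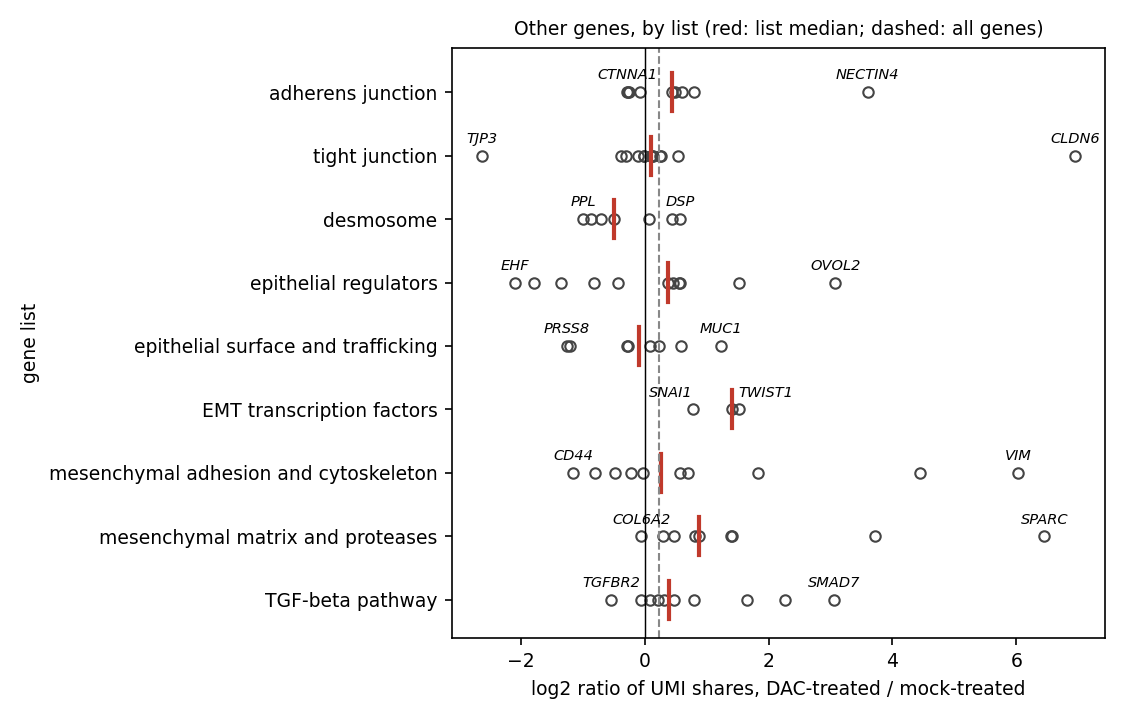
Log2 ratio of DAC-treated to mock-treated cells for the genes with 100 UMIs or more of each list (circles), with the median of the list (red) and of all 13547 genes (dashed, 0.24); the highest and lowest gene of each list are named. The medians of the desmosome, tight junction, and epithelial surface lists are below that of all genes and the other 6 are above it.

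Markers of other cell types were counted as well. The 7 fibroblast markers had 543 UMIs in mock-treated and 1182 UMIs in DAC-treated cells, of which *COL1A1* had 533 and 1112, and *COL1A2*, *DCN*, *LUM*, and *PDGFRA* were at 0 without DAC and at 4 to 31 UMIs with DAC. Of these 7 markers, 5 also belong to the list of the mesenchymal matrix. The 4 endothelial markers had 6 and 140 UMIs, with 3 of the 4 at 0 in mock-treated cells. The 5 leukocyte markers had 433 and 651 UMIs, or 8.68 and 11.03 CPM, with *PTPRC* and *CD3E* at 0 in mock-treated cells and *LST1* at 105 and 62 UMIs. The 3 erythroid markers had 45 and 167 UMIs, with *HBB* at 0 in mock-treated cells. The summed markers of each of the 4 other cell types were thus also higher after DAC, like the summed mesenchymal genes, and their part in the mesenchymal counts was not tested.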

How the data were processed

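UMI counts per gene and cell were analyzed in 1 mock-treated and 1 DAC-treated library of HCT116 cells. The authors deposited whole counts without normalization. Per the study's methods and the labels, libraries were prepared with 10x Chromium 3′ reagents, and reads were mapped to hg38 and counted using Cell Ranger. The annotation release, the filter on cells, and the use of strand are not given in the sources used here. All deposited cells were used, and samples were grouped by their labels.

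For each library, UMIs of a gene were added up over all cells and divided by the total, 49911689 UMIs for the mock-treated and 59046165 UMIs for the DAC-treated library. Sums have exact Poisson, shares Clopper-Pearson, and ratios conditional binomial intervals at the 95% level. A gene at 0 was set against 3 counts over the library. A gene was called at 1.5-fold among genes with 100 UMIs or more over both libraries. Doublets were not called, since both libraries are a single cell line, and the 5% of cells richest in UMIs were left out as an alternative. Cells are not replicates, so no test between conditions was made. The identity genes and the lists were chosen with earlier results of these data known. Text names all 10 genes, the highest and lowest gene of each list, and the 5 genes most like each sum in each library, and other genes were named after their values were seen. The results of 2 list genes are not reported here, and these genes were left out of their lists. Positions are from GENCODE release 44. Computations used Python 3.11.15, numpy 2.4.6, scipy 1.17.1, pandas 2.3.3, and matplotlib 3.10.9, and were tested on simulated data.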

Additional observations from a re-analysis of the deposited data

How the results depend on the processing

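The log2 ratio of the epithelial sum, -0.96, remained below 0 under all alternatives. It was -0.89 with cells thinned to 10000 UMIs, -0.87 with cells thinned to 2000 UMIs, -0.87 for CPM averaged over cells, -0.93 without the 5% of cells with the most UMIs, -0.99 without cells over 20% mitochondrial UMIs, -0.92 when scaled to non-mitochondrial UMIs, and -1.20 with median-of-ratios scaling. The log2 ratio of the mesenchymal sum, 1.00, was 1.28 with thinning to 2000 UMIs and 0.76 with median-of-ratios scaling. *CDH1* changed direction with thinning to 10000 UMIs (0.056), and was -0.48 without cells over 20% mitochondrial UMIs. *EPCAM* was inside 1.5-fold for CPM averaged over cells (-0.56) and without cells over 20% mitochondrial UMIs (-0.58), and *FN1* passed 1.5-fold with thinning to 10000 UMIs (0.73) or 2000 UMIs (1.25) and without cells over 20% mitochondrial UMIs (0.72). The limit of *CDH2*, 3.76, was 2.89 without cells over 20% mitochondrial UMIs and 0.52 at 10000 UMIs per cell, where 4 cells had a UMI. The cause of these differences was not tested.

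The share of cells with a mesenchymal UMI, 27.4% of DAC-treated and 14.3% of mock-treated cells, was 10.1% and 5.98% at 10000 UMIs, 2.73% and 1.18% at 2000 UMIs, 3.94% and 0.617% at 3 UMIs or more, and 38.2% and 18.3% in cells with 10000 UMIs or more and 50% mitochondrial UMIs or less. It was higher in DAC-treated cells each time. The Spearman correlation of both sums was 0.0053 in DAC-treated and -0.0031 in mock-treated cells at 2000 UMIs, and -0.234 in DAC-treated cells with CPM per cell. With a 2-fold limit, 16.3% of all genes were higher and 6.80% lower, and with median-of-ratios scaling 21.7% were lower. Leaving out the shared barcodes was chosen after seeing the data and changed no direction. Of 126 values under alternatives, 74 stayed within their counting interval or limit, 51 moved, and 1 reversed. For correlations the limit was 0.05 to either side, and a change of sign was not counted as reversed. The change of sign in DAC-treated cells at 2000 UMIs is thus among the values that moved. No paired analysis was possible because each condition had 1 library and no test was made. Low counts limit what the mesenchymal genes can show, with 4 UMIs of *SNAI2* in mock-treated and 20 in DAC-treated cells in all.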

Other observations

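The claudin and cadherin families were counted as a whole. Of 24 claudin genes in the tables, 7 had 100 UMIs or more, and 1, *CLDN6*, was at least 1.5-fold higher and 3, *CLDN3*, *CLDN4*, and *CLDN7*, at least 1.5-fold lower in DAC-treated cells, beside 31.0% of all genes higher and 14.2% lower. The lower claudins are those already described. The remaining 3, *CLDN12*, *CLDN15*, and *CLDN23*, had log2 ratios of 0.10, -0.012, and 0.57. Summed over the family, the level was 467 CPM in mock-treated and 245 CPM in DAC-treated cells. *CLDN10* had 0 UMIs in mock-treated and 60 UMIs in DAC-treated cells, and *CLDN2* had 33 and 3 UMIs.

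Of 23 cadherin genes, 4 had 100 UMIs or more and 1 of these, *CDH15*, M-cadherin of muscle, was at least 1.5-fold higher (184 and 534 UMIs) and none was lower, a share of higher genes near that of all genes. P-cadherin, *CDH3*, had 1918 and 1899 UMIs. *CDH13*, a cadherin anchored to the membrane by a lipid, had 1 UMI in mock-treated and 63 UMIs in DAC-treated cells. The summed level of the family was 71.1 CPM in mock-treated and 72.5 CPM in DAC-treated cells, so that the cadherins, unlike the claudins, had nearly the same total in both libraries.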
